A study of Mus musculus with 8 samples.

Results

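Colon epithelial cells of St6galnac6-/- mice were set against those of B3gnt7-/- mice, which asks what separates the loss of a sialyltransferase from the loss of a chain-extending enzyme. The comparison used 4 of the 8 RNA sequencing libraries of the series, 2 of each genotype, chosen by their labels alone: 1 St6galnac6-/- male, 1 St6galnac6-/- female, 1 B3gnt7-/- male and 1 B3gnt7-/- female. All were primary cells of untreated C57BL/6J mice. The other 4 libraries, 2 from wild-type mice and 2 from mice with the B3galt5D116A substitution in a galactosyltransferase, are given beside the comparison as levels and enter only alternative fits. The labels give neither the age of the mice nor which part of a gene was deleted, and leave unsaid if a library is 1 animal or pooled animals. The libraries of a genotype differ in sex and so come from different animals. The p-values below reflect a spread in which differences between animals and technical differences cannot be told apart. With 1 residual degree of freedom per gene, that spread comes mainly from the other genes.

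The mucus of the colon is built on mucins whose sugar chains are made stepwise. N-acetylgalactosamine is attached to the protein, core enzymes branch it, enzymes of the B3gnt and B4galt families lengthen the branches with N-acetylglucosamine and galactose, and fucosyl-, sulfo- and sialyltransferases cap them. B3gnt7 adds N-acetylglucosamine to galactose and so extends a chain, while St6galnac6 transfers sialic acid, a charged sugar, onto chains that others have built. Goblet cells secrete most of the mucin, and absorptive colonocytes carry a membrane-bound glycan coat.

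Each library gave 1 level per gene in FPKM, that is sequenced fragments scaled to transcript length and to the mapped fragments of the library, for 24346 gene symbols. Differences are St6galnac6-/- minus B3gnt7-/- on the log2(FPKM + 1) scale. The added 1 shrinks differences of genes at low FPKM, and a positive value means a higher level in St6galnac6-/-. The FPKM sums of the 4 libraries were 518482 to 601480, and 11432 to 11663 genes per library reached 1 FPKM. Read counts are not in the tables, and a value of 0 can be a failed estimate, so such genes are called listed at 0. Relative to the St6galnac6-/- male library at 1, a depth estimated from the spacing of the lowest values, those below 0.15 FPKM, was 1.12 in the St6galnac6-/- female, 1.16 in the B3gnt7-/- male and 0.968 in the B3gnt7-/- female. The epithelial label was borne out by its markers: Epcam, an epithelial adhesion protein, stood at 888 and 864 FPKM in the St6galnac6-/- male and female and at 939 and 866 FPKM in the B3gnt7-/- male and female. None of 11 measured markers of B and plasma cells and none of 14 of enteric glia and neurons reached a mean of 1 FPKM.

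The B3gnt7-/- female library stood apart from the other 3. Its log2 values correlated with theirs at 0.974 to 0.977, against 0.982 to 0.987 among the others, as a description over genes. The 19 measured heat shock genes, chaperones that respond to stress, summed to 2661 FPKM there against 6246 to 6794 FPKM in the other 3. The stress chaperone Hspa1a was at 77.9 FPKM there against 446, 466 and 468 FPKM. Wild-type lay between, at 4232 and 4750 FPKM for the sum and 153 and 237 FPKM for Hspa1a. The B3galt5D116A sums were 6528 and 6963 FPKM. The 24 markers of stromal, muscle and endothelial cells summed to 56.1 FPKM in the B3gnt7-/- female against 19.4 to 22.3 FPKM in the other 3. Dcn, a proteoglycan of connective tissue, was at 18.9 FPKM against 2.45, 2.88 and 3.03 FPKM, whereas the endothelial markers Cdh5 and Cldn5 were listed at 0 in all 4 libraries. For several gene lists and genes whose differences it moves, values without it are given. Further lists whose median changed sign without it are named at the end. Epcam, Cdh5 and Cldn5 were named after their values were seen.

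**Figure D1:**
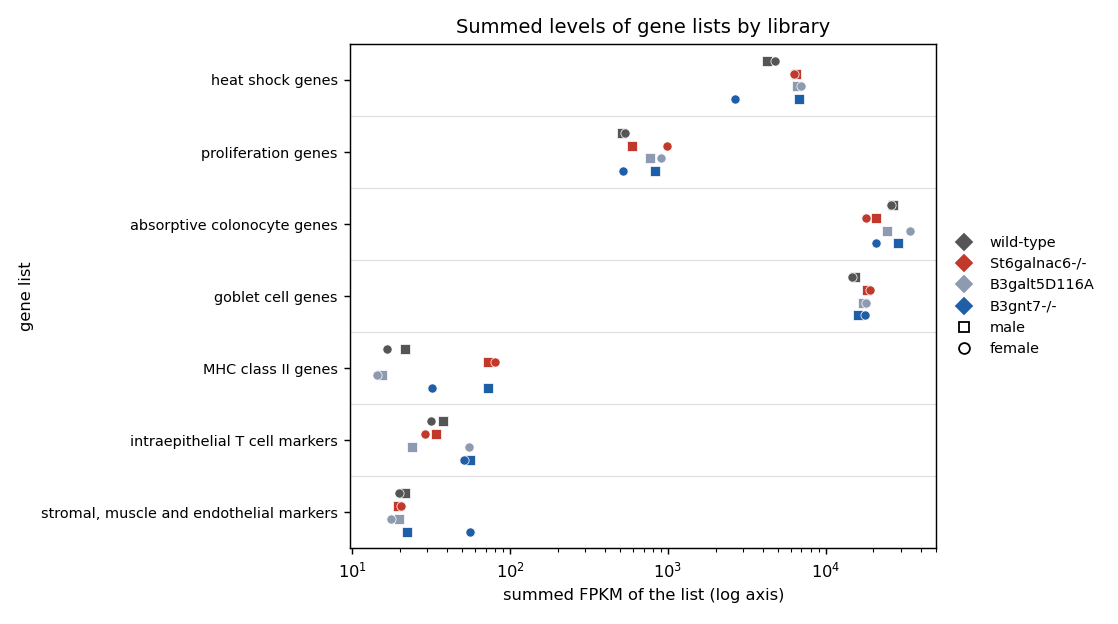
Summed FPKM (log axis) of 7 gene lists in each of the 8 libraries, with squares for male and circles for female libraries and colour for genotype. The B3gnt7-/- female library, at 2661 FPKM for heat shock genes and 56.1 FPKM for stromal markers, lies away from the other libraries of both lists.

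The targeted genes followed their labels in direction, with transcript remaining in both. St6galnac6 (mm10 chromosome 2, 32599709 to 32620806) was at 218 and 232 FPKM in the St6galnac6-/- male and female and at 397 and 444 FPKM in the B3gnt7-/- male and female. The groups did not overlap, and the log2 difference was -0.90 (SE 0.15, limma adjusted p = 0.301), with -0.87 between males and -0.93 between females. B3gnt7 (chromosome 1, 86302832 to 86307305) was at 213 and 265 FPKM in the St6galnac6-/- male and female against 68.8 and 142 FPKM in the B3gnt7-/- male and female. Its groups did not overlap either, and the log2 difference was 1.26 (SE 0.20, limma adjusted p = 0.285), with 1.62 between males and 0.90 between females. Neither gene passed the threshold. Within 1 Mb of St6galnac6, none of 34 tested genes passed, and 2 had an unadjusted p under 0.05, beside 3.61% of all 11149 placed genes. Within 1 Mb of B3gnt7 none of 17 passed, and 1, Alpi, had an unadjusted p under 0.05. Counts this small cannot be set apart from that share. Alpi, an intestinal alkaline phosphatase, was at 7.72 and 6.30 FPKM in the St6galnac6-/- libraries against 12.4 and 11.3 FPKM in B3gnt7-/-. Alpi was named after its values were seen.

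Of 11564 genes whose mean over the 4 libraries reached 1 FPKM, 10 passed an adjusted p of 0.05 in limma, 0.0865% of those tested. The 4 that were higher in St6galnac6-/- encode a kallikrein (Klk1b22), a surface protein (Psca), a sterol transporter (Abcg5) and a secreted goblet cell protein (Retnlb). The 6 that were lower are 2 sensors of bacterial proteins (Naip6 and Naip7), a transcript typed as a pseudogene (BC064078) and 3 small RNA genes (Snora34, Snora64 and Mir719). All 10 had 1 sign in both sexes, which the fit all but fixes and which is no separate support. With the sex term, a gene's own spread is the disagreement between its male and female differences. Over all genes, 46.3% had the same sign in both sexes, and the median log2 difference was 0.02. An unadjusted p under 0.05 was reached by 148 genes in the higher direction (1.28%) and 276 in the lower (2.39%), 424 in all, where evenly spread p-values would give 578. The groups did not overlap for 16.0% of genes in the higher direction and 13.5% in the lower.

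**Figure D2:**
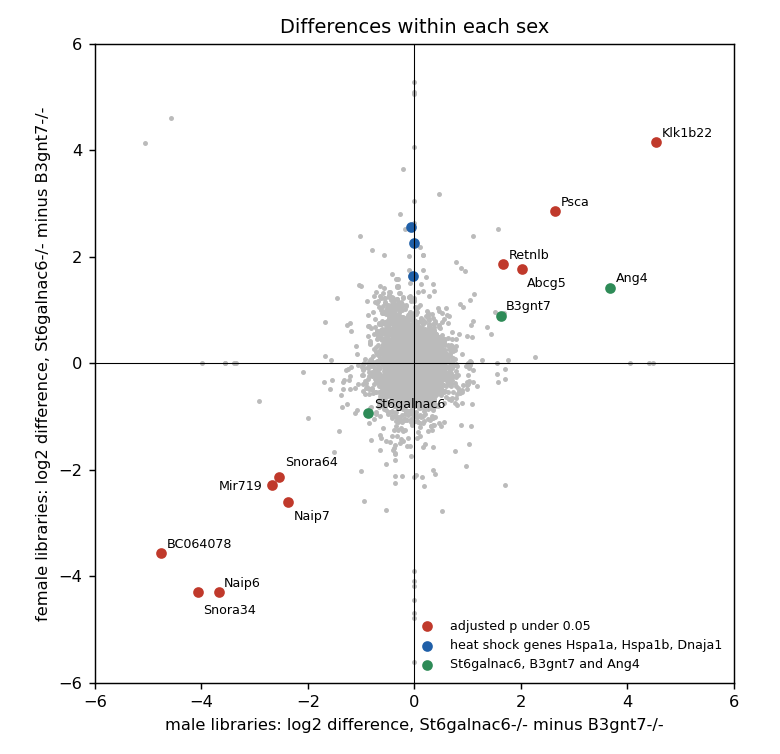
Log2 difference between the male libraries (x axis) and between the female libraries (y axis), St6galnac6-/- minus B3gnt7-/-, for the 11564 genes tested. The 10 genes past the threshold (red) lie far out along the diagonal, as the fit with a sex term requires of a call. The heat shock genes Hspa1a, Hspa1b and Dnaja1 (blue) lie near 0 between males and at 1.64 to 2.57 between females.

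Naip6 and Naip7 were listed at or near 0 in both St6galnac6-/- libraries and in no other. The Naip proteins are cytosolic receptors that bind flagellin or secretion system proteins of bacteria and activate the inflammasome adaptor Nlrc4. Their genes are close copies, so reads can be assigned to the wrong member. Over the coding sequence, Naip6 and Naip5 were identical at 4081 of 4209 aligned bases (96.96%) in GENCODE M21. Of the 50-base stretches of the Naip6 transcript, 78.7% occurred in none of Naip1, Naip2, Naip3 and Naip5. Naip7 has no entry there and was not compared, so the share could be lower with it included. The window of 60 bases with the most differences lies in exon 2 of Naip6 on the minus strand, at chr13:100316452-100316511 in mm10, and at chr13:100246100-100246159 in Naip5. It is shown because it is where a read can best tell the genes apart, with the 10 differing bases in capitals.
Naip6: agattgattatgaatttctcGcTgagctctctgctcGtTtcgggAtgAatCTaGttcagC
Naip5: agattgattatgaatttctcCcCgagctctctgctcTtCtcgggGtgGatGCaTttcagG

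Naip6 (chromosome 13, 100281121 to 100317674) was at 0.0784 and 0.0818 FPKM in the St6galnac6-/- male and female and at 12.8 and 20.4 FPKM in the B3gnt7-/- male and female. Wild-type libraries held 13.4 and 15.03 FPKM and B3galt5D116A libraries 14.5 and 12.0 FPKM, so that only the St6galnac6-/- libraries were low. The log2 difference was -3.99 (SE 0.22, limma adjusted p = 0.00209), from a mean of 0.0801 ± 0.00240 FPKM to one of 16.6 ± 5.37 FPKM (SD, n = 2 each), 207 times as high. For Naip7 the tables list 0 in the St6galnac6-/- male and female, and it was at 4.19 and 5.04 FPKM in the B3gnt7-/- male and female, beside 3.69 and 7.04 FPKM in wild-type and 3.90 and 1.73 FPKM in B3galt5D116A (log2 -2.49, SE 0.25, limma adjusted p = 0.0291). Its symbol has no entry in GENCODE M21, so no position is given. Naip5, named after its values were seen, was at 43.4 and 40.2 FPKM in the St6galnac6-/- male and female and at 29.8 and 40.7 FPKM in the B3gnt7-/- male and female, with overlapping groups (log2 0.26, SE 0.18). The levels of Naip5, Naip6 and Naip7 summed to 43.5 and 40.3 FPKM in the St6galnac6-/- pair. The sums were 46.7 and 66.1 FPKM in the B3gnt7-/- pair, 48.3 and 57.6 FPKM in wild-type and 50.6 and 40.8 FPKM in B3galt5D116A. Naip5 makes up most of each sum, so the sums must differ less in proportion than Naip6 alone. Whether reads were assigned to the wrong member was not tested. In the fit of the other 3 libraries, leaving out the B3gnt7-/- female gave Naip7 an adjusted p of 0.143, while Naip6 kept 0.0295.

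The other Naip and inflammasome genes did not pass. Of 20 tested, 16 were lower in St6galnac6-/- and 4 higher, with a median log2 difference of -0.18 against 0.02 over all genes, and the groups did not overlap for 12 of the lower ones, beside 13.5% of all genes. This includes Naip6 and Naip7 themselves. Nlrp9b, a sensor of the same wider family, was at 10.7 and 13.6 FPKM in the St6galnac6-/- pair against 18.4 and 20.2 FPKM in the B3gnt7-/- pair (log2 -0.63, SE 0.15, limma adjusted p = 0.814). Naip1 was at 48.5 and 48.4 FPKM against 55.5 and 62.0 FPKM, and the adaptor Nlrc4 at 13.8 and 12.1 FPKM against 14.0 and 14.3 FPKM. Nlrp9b, Naip1 and Nlrc4 were named after their values were seen.

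Klk1b22, one of a tandem family of tissue kallikreins, which are serine proteases, was present in St6galnac6-/- and listed at 0 in both B3gnt7-/- libraries. Among its relatives Klk1b21 is the closest over the coding sequence (690 of 777 aligned bases, 88.8%), and 86.7% of the 50-base stretches of the Klk1b22 transcript occurred in none of them. The window of 60 bases that separates this pair best lies in exon 4 on the plus strand, at chr7:44116232-44116291 in mm10 for Klk1b22 and chr7:44105895-44105954 for Klk1b21. It is shown, with the 17 differing bases in capitals, because it is where a read can best tell this pair apart.
Klk1b22: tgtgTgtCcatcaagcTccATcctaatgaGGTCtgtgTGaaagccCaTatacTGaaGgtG
Klk1b21: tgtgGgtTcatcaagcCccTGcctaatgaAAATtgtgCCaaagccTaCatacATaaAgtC

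The level of Klk1b22 (chromosome 7, 44112673 to 44116922) was 22.3 and 16.8 FPKM in the St6galnac6-/- male and female, near the 21.3 and 25.3 FPKM of wild-type, and was listed at 0 in both B3gnt7-/- and both B3galt5D116A libraries. The log2 difference was 4.35 (SE 0.20, limma adjusted p = 0.000861). The family as a whole did not share it. Klk1, by far its most abundant member, was at 2086 and 2047 FPKM in the St6galnac6-/- pair against 1595 and 2097 FPKM in the B3gnt7-/- pair (log2 0.18, SE 0.17), with overlapping groups. Klk1b21 was listed at 0 in both St6galnac6-/- libraries and at 0.105 and 0 FPKM in the B3gnt7-/- male and female. Klk1 and Klk1b21 were named after their values were seen. Klk1b22 was the only 1 of 5 tested family members to pass.

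Pop4, a protein subunit of RNase P, and Zfp939, a transcribed zinc finger pseudogene in GENCODE M21, lie on the same chromosome at 38261996 to 38271423 and 39449518 to 39477413. They had the smallest p of the genes that did not pass in the lower direction and in the higher. Pop4 was at 5.04 and 4.58 FPKM in the St6galnac6-/- male and female against 15.2 and 12.4 FPKM in the B3gnt7-/- male and female (log2 -1.34, SE 0.15, limma adjusted p = 0.0569). Wild-type held 6.63 and 3.68 FPKM and B3galt5D116A 15.8 and 18.6 FPKM. Zfp939 went the other way, at 10.3 and 9.53 FPKM in the St6galnac6-/- pair against 4.22 and 3.26 FPKM in the B3gnt7-/- pair (log2 1.21, SE 0.16, limma adjusted p = 0.132), with 8.01 and 9.38 FPKM in wild-type and 3.72 and 3.04 FPKM in B3galt5D116A. For Pop4, Zfp939 and Klk1b22, the St6galnac6-/- libraries thus lay near wild-type and the B3gnt7-/- libraries near B3galt5D116A. Between 35000000 and 50000000 on chromosome 7, a window chosen after values were seen, 118 genes were tested, and 8 had an unadjusted p under 0.05, against 41 of 860 over the whole chromosome (4.77%) and 3.61% of genes over all chromosomes. The 8 include Klk1b22, Pop4 and Zfp939, which prompted the window. Chst8, a sulfotransferase just before this window at 34674468 to 34812711, had the same order, with 2.63 and 1.59 FPKM in St6galnac6-/-, 0.268 and 0.320 FPKM in B3gnt7-/-, 2.87 and 3.04 FPKM in wild-type and 0.259 and 0.336 FPKM in B3galt5D116A (log2 1.25, SE 0.29, limma adjusted p = 0.814).

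Psca, a lipid-anchored surface protein of the Ly6 family (chromosome 15, 74714839 to 74717069), showed that order as well. It was at 5.97 and 6.27 FPKM in the St6galnac6-/- male and female and at 0.112 and 0 FPKM in the B3gnt7-/- male and female. Wild-type held 10.1 and 7.20 FPKM and B3galt5D116A 0.326 and 0 FPKM. The log2 difference was 2.76 (SE 0.23, limma adjusted p = 0.0118). Of 10 tested genes of the Ly6 family it alone passed, and the family's median log2 difference was 0.05.

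Abcg5 forms with Abcg8 a transporter that returns plant sterols and cholesterol to the gut lumen, and the genes lie head to head on chromosome 17. Abcg5 (84658234 to 84683011) was at 8.98 and 9.88 FPKM in the St6galnac6-/- male and female and at 1.46 and 2.17 FPKM in the B3gnt7-/- male and female. The means were 9.43 ± 0.632 and 1.82 ± 0.4998 FPKM (SD, n = 2 each), a ratio of 5.19, and the log2 difference was 1.90 (SE 0.18, limma adjusted p = 0.0203). Wild-type was at 8.47 FPKM in the male but 3.28 FPKM in the female, and B3galt5D116A at 2.28 and 2.07 FPKM. Abcg8, named after its values were seen, was at 2.67 and 2.77 FPKM in the St6galnac6-/- pair against 0.754 and 1.29 FPKM in the B3gnt7-/- pair (log2 0.89, SE 0.24, limma adjusted p = 0.981). Without the B3gnt7-/- female, in the fit of the other 3 libraries, the adjusted p of Abcg5 was 0.0537. Since these partners lay in 1 direction, the RefSeq promoter of Abcg5 is shown (GRCm38.p6, minus strand, chr17:84682962-84683261, 250 bases before to 50 after the start). Capitals mark the 3 matches on either strand to the GATA factor motif spelled AGATAA or TGATAA, which 18.61% of 32851 promoters of this length hold. A match is a description of these letters only.
Abcg5: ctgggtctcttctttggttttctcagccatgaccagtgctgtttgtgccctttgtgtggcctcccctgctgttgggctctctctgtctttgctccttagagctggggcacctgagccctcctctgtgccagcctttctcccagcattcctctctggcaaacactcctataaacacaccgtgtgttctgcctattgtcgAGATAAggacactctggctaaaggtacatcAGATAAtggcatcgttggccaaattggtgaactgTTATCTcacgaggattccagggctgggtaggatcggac

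Retnlb, a secreted goblet cell protein that acts on bacteria (chromosome 16, 48816856 to 48818892), was at 140.4 and 87.0 FPKM in the St6galnac6-/- male and female and at 43.5 and 23.3 FPKM in the B3gnt7-/- male and female. The groups did not overlap, and the log2 difference was 1.76 (SE 0.15, limma adjusted p = 0.0118), with 1.67 between males and 1.86 between females. Both genotypes lay above the 16.7 and 21.05 FPKM of wild-type, and the B3galt5D116A libraries spread from 63.6 to 265 FPKM. In the fit of all 8 libraries, whose spread includes that pair, the adjusted p was 0.9997. In fits of the other 7 libraries the Retnlb difference was 1.05 without the B3gnt7-/- female and 1.17 without the St6galnac6-/- male. Without the B3gnt7-/- female and in the fit of the other 3 libraries the adjusted p was 0.622, and without the B3gnt7-/- male 0.137. Since these are bulk samples, fewer cells of a type and less RNA per cell cannot be told apart, here or for any gene list below.

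BC064078 (chromosome 6, 128992952 to 129008040) was present in the B3gnt7-/- libraries and listed at or near 0 elsewhere. It was at 0.133 and 0 FPKM in the St6galnac6-/- male and female, at 29.6 and 10.9 FPKM in the B3gnt7-/- male and female, at 0 and 0.307 FPKM in wild-type and at 0.111 and 0 FPKM in B3galt5D116A. The log2 difference was -4.16 (SE 0.29, limma adjusted p = 0.00497). On chromosome 6, 38 of 538 tested genes had an unadjusted p under 0.05 (7.06%), against 403 of 11149 over all chromosomes (3.61%). Among them, all lower in St6galnac6-/- and with an unadjusted p under 0.001, were Fxyd4, Apobec1, Plbd1, Mgll and Gm15401. Apobec1, the editing enzyme of apolipoprotein B messages (122577792 to 122602444), was at 11.8 and 15.7 FPKM in the St6galnac6-/- pair against 29.9 and 27.1 FPKM in the B3gnt7-/- pair (log2 -1.01, SE 0.17, limma adjusted p = 0.341), with 18.1 and 17.9 FPKM in wild-type. Apobec1, Plbd1 and Gm15401 were named after their values were seen. Mgll, monoglyceride lipase (88724412 to 88828360), was at 14.98 and 10.3 FPKM against 28.9 and 20.5 FPKM (log2 -0.91, SE 0.14, limma adjusted p = 0.271).

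The 3 small RNA genes are short, and FPKM divides by length, so that few fragments give a high value. Their annotated lengths are 138 bases for Snora34, 134 for Snora64 and 110 for Mir719, and the libraries were made for messenger RNA. Snora64, a guide RNA of ribosomal RNA modification (chromosome 17, 24720772 to 24720905), was at 18.7 and 16.7 FPKM in the St6galnac6-/- male and female and at 113 and 77.3 FPKM in the B3gnt7-/- male and female (log2 -2.34, SE 0.16, limma adjusted p = 0.00497). Wild-type, at 45.5 and 64.8 FPKM, lay between. Snora34 (chromosome 15, 98519716 to 98519853) was listed at 0 in both St6galnac6-/- libraries and at 15.7 and 18.7 FPKM in B3gnt7-/- (log2 -4.18, SE 0.19, limma adjusted p = 0.000861). It was also listed at 0 in 1 wild-type and 1 B3galt5D116A library, and in the fit of all 8 libraries its adjusted p was 0.9997. Mir719 (chromosome 14, 60228806 to 60228915) was at 10.7 and 0 FPKM in the St6galnac6-/- male and female and at 74.3 and 3.85 FPKM in the B3gnt7-/- male and female (log2 -2.48, SE 0.17, limma adjusted p = 0.00497). Here the groups overlapped, and the call rests on the similar difference within each sex: without the sex term its adjusted p was 0.9997. With 1 library left out, in fits of the other 3, the Mir719 difference ran from -4.46 without the B3gnt7-/- female to -0.50 without the B3gnt7-/- male. The mature sequence of its product in RefSeq, at chr14:60228873-60228894 on the minus strand of GRCm38.p6, is shown with its seed, bases 2 to 8, in capitals. The deposited level is that of the gene and not of this mature form.
mmu-miR-719: aUCUCGGCuacagaaaaauguu

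Across the 17 alternative ways of processing tried for single genes (16 for Psca and Naip7, which a filter of 5 FPKM leaves out), Klk1b22 passed in all 17 and Naip6 in 16, with adjusted p of at most 0.0374 and 0.0870. Psca and Snora64 passed in 13, BC064078 and Snora34 in 12, Abcg5 and Naip7 in 8, Retnlb in 7 and Mir719 in 4. In fits of the other 7 libraries, leaving out the St6galnac6-/- male gave BC064078 an adjusted p of 0.226 and Snora64 one of 0.244. Leaving out the St6galnac6-/- female gave them 0.148 and 0.322, and Psca 0.0585. No direction turned in any of these. The number of calls was 12 without the B3gnt7-/- female (fit of the other 3 libraries) but 42 without the B3gnt7-/- male, when B3gnt7-/- is the female alone.

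**Figure D3:**
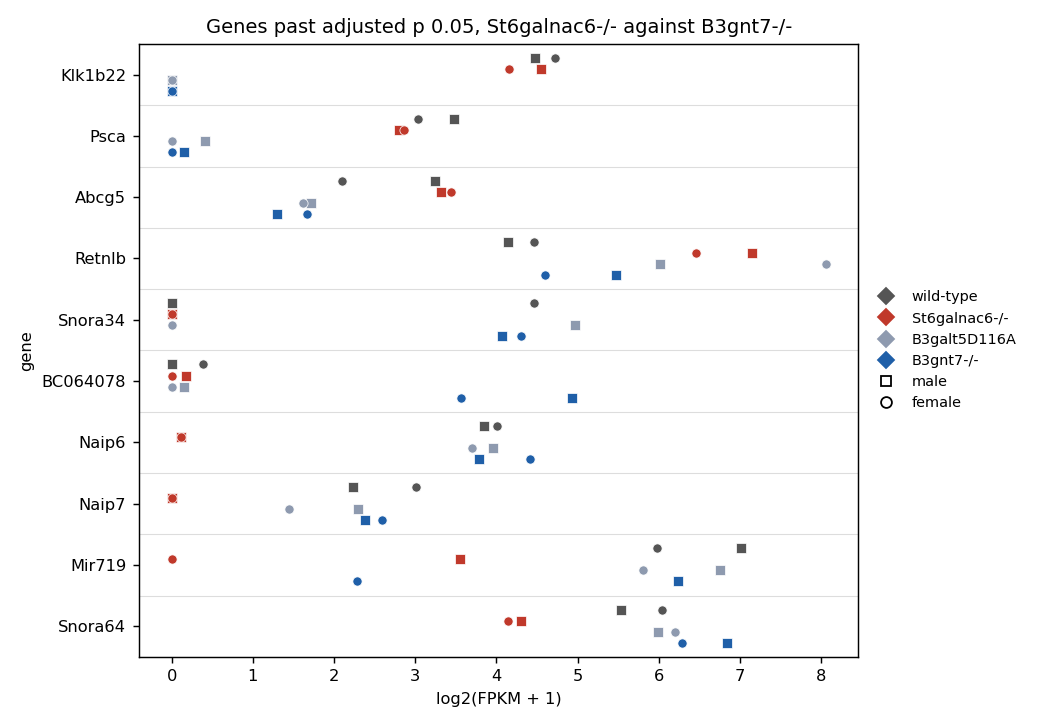
Level in log2(FPKM + 1) of the 10 genes past the threshold in each of the 8 libraries, with squares for male and circles for female libraries and colour for genotype. Naip6 and Naip7 are low in the St6galnac6-/- libraries only, BC064078 is high in the B3gnt7-/- libraries only, and Klk1b22 and Psca are at or near 0 in B3gnt7-/- and B3galt5D116A.

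The genes that make and cap mucin glycans were next taken by step. Among 15 tested genes of sialic acid synthesis, transport, transfer and removal, the last being Neu1 and Neu3, none passed. Of these 8 were positive, Neu1 and Neu3 among them, and 7 negative, and the median log2 difference was 0.01. St6galnac6 itself and St6gal1, which caps galactose with sialic acid, were the only ones with an unadjusted p under 0.05. St6gal1 was at 13.0 and 17.5 FPKM in the St6galnac6-/- male and female against 15.4 and 27.0 FPKM in the B3gnt7-/- male and female, with overlapping groups (log2 -0.42, SE 0.16, unadjusted p = 0.0333). Without the B3gnt7-/- female the St6gal1 difference was -0.03 in the fit of the other 3 libraries. St6galnac2, a relative of the targeted gene that acts on core O-glycans, was nearly level at 47.8 and 46.8 FPKM against 47.6 and 46.6 FPKM (log2 0.01, 95% interval -0.33 to 0.34). St6galnac4 was at 11.03 and 13.5 FPKM against 7.54 and 14.8 FPKM (log2 0.19, SE 0.18). The sialic acid transporter Slc35a1 stood at 100.4 and 112 FPKM against 105 and 100.1 FPKM, with overlapping groups (log2 0.04, SE 0.15).

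Among 22 tested chain extension and galactosyl enzymes, B3gnt7 included, none passed, 8 were positive and 14 negative, and the median log2 difference was -0.12. The groups did not overlap for 2 in the higher direction and 9 in the lower, beside 16.0% and 13.5% of all genes. B3gnt6, which builds the core 3 structure of colon mucin, had the smallest p after B3gnt7. It was at 6.12 and 5.58 FPKM in the St6galnac6-/- male and female against 9.07 and 11.7 FPKM in the B3gnt7-/- male and female, and at 8.58 and 12.1 FPKM in wild-type (log2 -0.73, SE 0.17, limma adjusted p = 0.853). B4galt1, a galactosyltransferase that alternates with B3gnt enzymes, was at 20.6 and 23.7 FPKM against 27.9 and 30.9 FPKM (log2 -0.39, SE 0.14, unadjusted p = 0.0282). B3gnt2, the other main builder of such chains, was at 28.2 and 30.0 FPKM against 34.5 and 37.0 FPKM (log2 -0.29, SE 0.14). B3gnt3 was at 105 and 122 FPKM against 109.9 and 117 FPKM, a log2 difference of 0.00 (SE 0.14). B3galt5, the gene substituted in the third mutant, was at 105 and 138 FPKM against 109.6 and 162 FPKM (log2 -0.14, SE 0.15). The list's median turned positive, to 0.03, without the St6galnac6-/- male in the fit of 7 libraries.

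**Figure D4:**
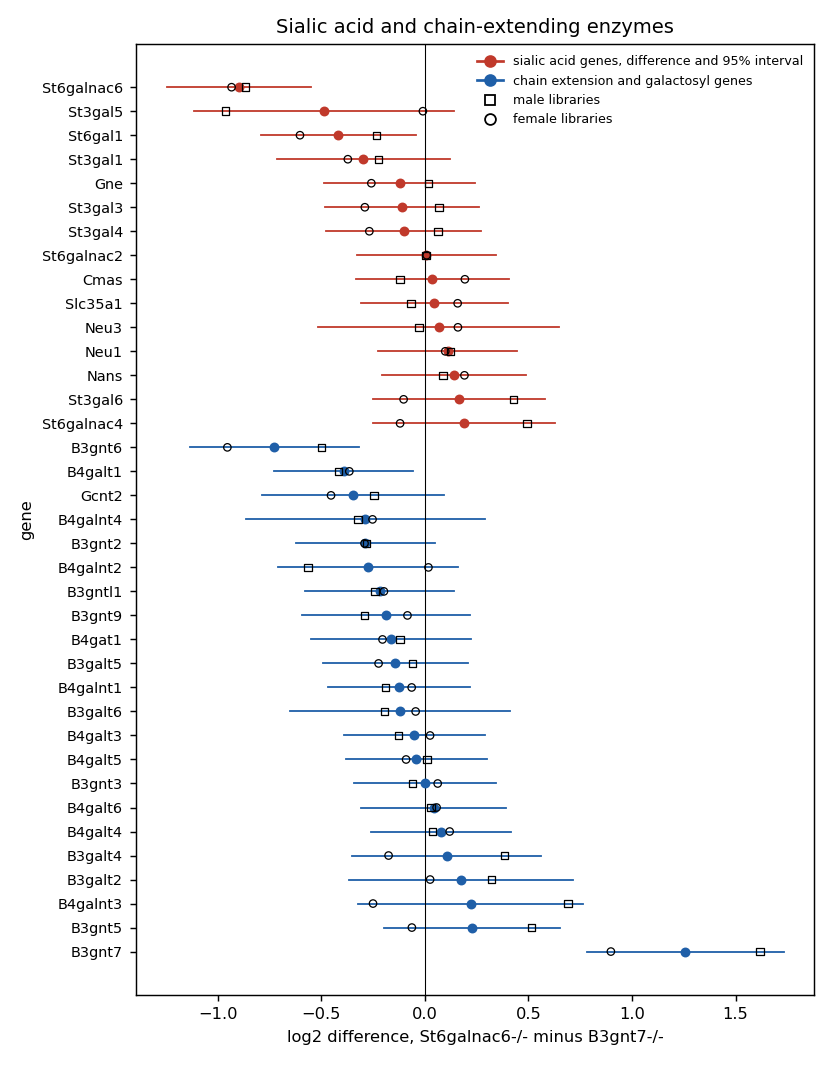
Log2 difference, St6galnac6-/- minus B3gnt7-/-, of 15 sialic acid genes (red) and 22 chain extension and galactosyl genes (blue), with the 95% interval from limma and the male (square) and female (circle) differences. St6galnac6 at -0.90 and B3gnt7 at 1.26 lie furthest from 0.

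Upstream and downstream steps showed no gene past the threshold. Of 15 O-glycan initiation and core enzymes, 9 were lower and 6 higher (median -0.10). Galnt11, which starts O-glycans, was at 6.46 and 5.72 FPKM in the St6galnac6-/- pair against 12.0 and 8.36 FPKM in the B3gnt7-/- pair (log2 -0.64, SE 0.16, limma adjusted p = 0.905). The medians were -0.03 for 12 fucosyltransferases and -0.15 for 9 carbohydrate sulfotransferases. Muc2, the gel-forming mucin of the colon, was at 1045 and 1463 FPKM in the St6galnac6-/- male and female and at 1447 and 1786 FPKM in the B3gnt7-/- male and female. These overlapped, with a lower level in St6galnac6-/- within each sex (log2 -0.38, SE 0.16, unadjusted p = 0.0461). Of 5 mucins tested, 4 were lower, with a median of -0.24, which was 0.03 without the B3gnt7-/- female in the fit of the other 3 libraries.

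Of 26 goblet cell genes tested, 17 were higher in St6galnac6-/- and 9 lower. Retnlb passed, 6 were higher and 2 lower at an unadjusted p under 0.05 (1.28% and 2.39% of all genes), and the median log2 difference was 0.08, with 0.27 between males and -0.10 between females. In fits of the other 3 libraries the median was -0.05 without the B3gnt7-/- male and 0.36 without the B3gnt7-/- female, and in the fit of 7 without that female it was 0.39. Ang4, an antimicrobial ribonuclease, was at 361 and 158 FPKM in the St6galnac6-/- male and female and at 27.3 and 58.2 FPKM in the B3gnt7-/- male and female. It had the widest gap of the list (log2 2.55, SE 0.46, limma adjusted p = 0.365), and both genotypes lay above the 3.98 and 7.56 FPKM of wild-type. Reg4, a secreted lectin, was at 617 and 601 FPKM against 405 and 318 FPKM (log2 0.76, SE 0.16, limma adjusted p = 0.655), beside 138 and 146 FPKM in wild-type. Clca1, a secreted mucus protease, was at 1091 and 879.8 FPKM against 335 and 946 FPKM, so that its groups overlapped and its sexes differed in sign. Ang4, Reg4 and Clca1 were named after their values were seen. Ang4, Reg4 and Retnlb are also on the list of 23 antimicrobial genes, which is thus not separate. Pla2g2a, a secreted phospholipase gene typed as a polymorphic pseudogene in GENCODE M21, is on that list as well, at 13.5 and 16.6 FPKM in the St6galnac6-/- pair against 6.03 and 6.73 FPKM in the B3gnt7-/- pair and 1.62 and 3.77 FPKM in wild-type (log2 1.12, SE 0.15, limma adjusted p = 0.132).

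Absorptive colonocyte genes were mostly lower in St6galnac6-/- in both sexes. Of 33 tested, none passed, 29 were lower in St6galnac6-/- and 4 higher, and 9 were lower at an unadjusted p under 0.05 (2.39% of all genes) with none higher. The groups did not overlap for 13, all lower (39.4%, beside 13.5% of all genes). The median log2 difference was -0.23, with -0.25 between males and -0.23 between females. It ran from -0.27 to -0.12 over the alternatives, nearest to 0 without the B3gnt7-/- male in the fit of the other 3 libraries. The list's summed level was 20752 and 17834 FPKM in the St6galnac6-/- male and female against 28498 and 20675 FPKM in the B3gnt7-/- male and female, which nearly meet. Slc37a2, a sugar-phosphate transporter, was at 12.8 and 13.2 FPKM against 54.2 and 27.8 FPKM, and at 43.3 and 91.6 FPKM in wild-type (log2 -1.51, SE 0.23, limma adjusted p = 0.271). Car4, a membrane carbonic anhydrase of surface cells, was at 284 and 299.5 FPKM against 401 and 497 FPKM, the latter near wild-type at 462 and 492 FPKM (log2 -0.61, SE 0.15, limma adjusted p = 0.905). Atp12a, the colonic proton pump, was at 13.1 and 19.0 FPKM against 16.4 and 42.1 FPKM, with overlapping groups. Fxyd4, a regulator of the sodium pump counted with 16 aldosterone-type transport genes, was at 9.67 and 15.4 FPKM against 17.8 and 43.4 FPKM (log2 -1.13, SE 0.18, limma adjusted p = 0.301), far below its 92.8 and 109.9 FPKM in wild-type. Without the B3gnt7-/- female the Fxyd4 difference was -0.51 in the fit of the other 3 libraries. General epithelial markers had a median of -0.04, and Epcam a log2 difference of -0.04 (SE 0.15).

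Genes of metabolism that colonocytes share were mostly lower in St6galnac6-/- as well, none past the threshold. Of 25 cholesterol synthesis genes 21 were lower, 6 of them at an unadjusted p under 0.05 (2.39% of all genes), with a median of -0.13. Lss and Hsd17b7, enzymes of the sterol pathway, had log2 differences of -0.40 (SE 0.14) and -0.43 (SE 0.15). Without the St6galnac6-/- male the list's median was 0.01 in the fit of 3 libraries and 0.04 in the fit of 7. Of 57 xenobiotic genes 42 were lower and 15 higher (median -0.12), 8 and 1 of them at an unadjusted p under 0.05 (2.39% and 1.28% of all genes). Cyp2c55, a colonic cytochrome, was at 1283 and 823 FPKM against 1767 and 1542 FPKM (log2 -0.68, SE 0.17, limma adjusted p = 0.905), and the carboxylesterase Ces2a at 118 and 73.2 FPKM against 138 and 175 FPKM (log2 -0.73, SE 0.24). The xenobiotic median turned positive without the B3gnt7-/- male or the St6galnac6-/- female, at most to 0.06. Fatty acid oxidation genes were lower in 21 of 29, with a median of -0.12 that turned positive, at most to 0.05, without the same libraries.

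The tested markers of intraepithelial T cells were lower in St6galnac6-/-. All 12 that were tested were lower (median -0.50), 4 at an unadjusted p under 0.05 (2.39% of all genes) and 8 with groups that did not overlap (13.5% of all genes), and none passed. The summed level of the 24 measured markers was 34.0 and 28.8 FPKM in the St6galnac6-/- male and female. It was 55.5 and 51.3 FPKM in the B3gnt7-/- male and female, and wild-type lay at 37.6 and 31.8 FPKM. The B3galt5D116A male and female held 24.1 and 54.7 FPKM, so libraries of 1 genotype can lie as far apart. Cd7, a surface protein of these cells, was at 3.24 and 2.36 FPKM against 5.35 and 6.80 FPKM (log2 -0.90, SE 0.21, limma adjusted p = 0.853), and the chemokine Ccl5 at 6.45 and 7.16 FPKM against 17.9 and 9.33 FPKM (log2 -0.84, SE 0.24). Cd4, also named after its values were seen, was at most 0.121 FPKM in the 4 libraries. Of 26 measured myeloid markers 6 were tested, all lower too (median -0.46), among them the macrophage protein Cd68 at 1.14 and 1.49 FPKM against 3.49 and 3.57 FPKM (log2 -0.97, SE 0.21, limma adjusted p = 0.722). The 26 summed to 30.1 and 35.7 FPKM against 39.9 and 42.0 FPKM. A marker can reach the filter through its level in 1 genotype, as C1qa did with means of 0.635 against 1.37 FPKM. In alternatives that left out no library, the median ran from -0.65 to -0.11 for myeloid and from -0.80 to -0.19 for T cell markers. Interferon-induced genes, of which T cells and epithelium both express some, were lower in 24 of 34 (median -0.20, with -0.42 between males and 0.00 between females). Irf7, a regulator of that response, was at 46.1 and 40.2 FPKM against 70.7 and 49.8 FPKM (log2 -0.45, SE 0.15). Whether the T cell and myeloid markers have a part in the other differences was not tested.

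**Figure D5:**
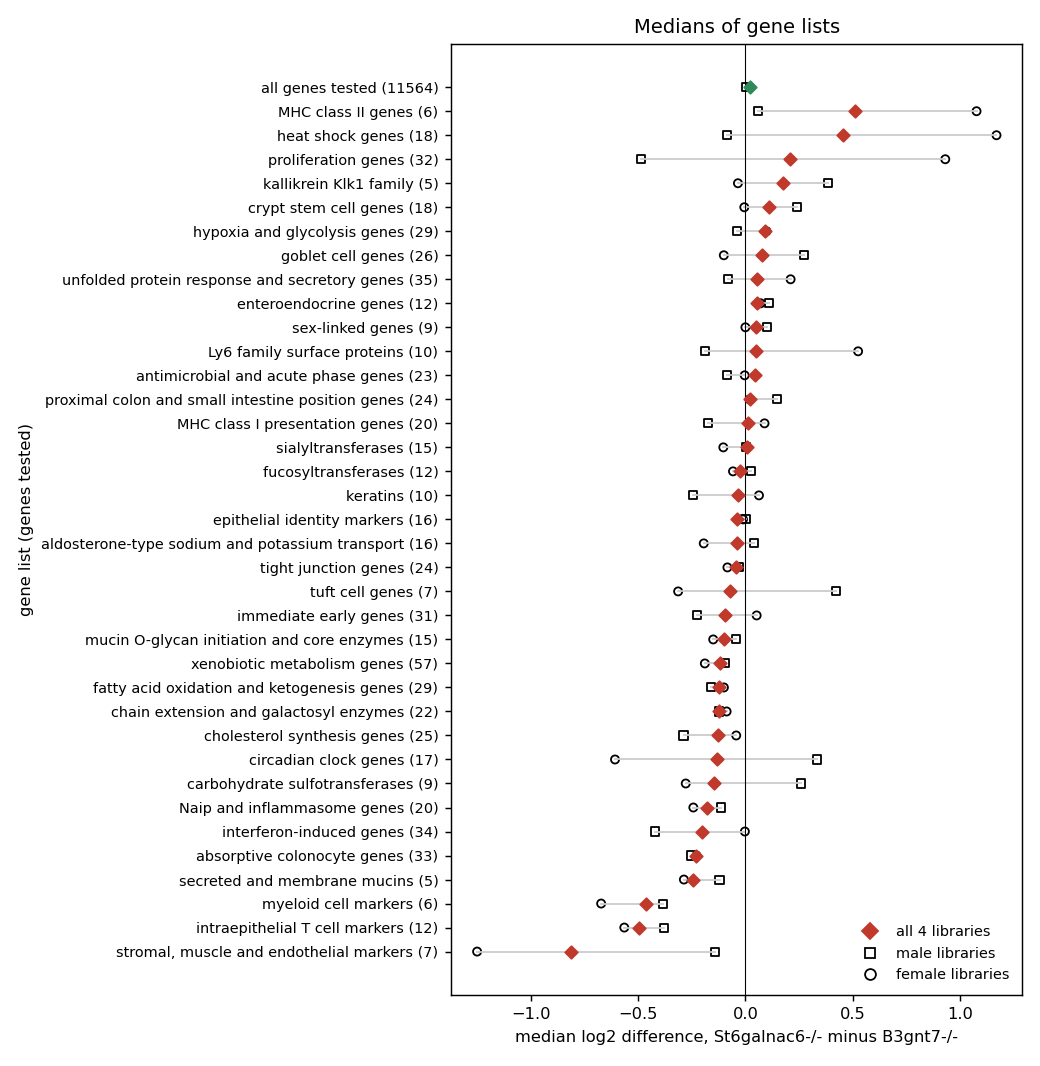
Median log2 difference, St6galnac6-/- minus B3gnt7-/-, of each gene list with tested members (number tested in parentheses), over all 4 libraries (diamonds) and within males (squares) and females (circles). The all-gene median is 0.02, absorptive colonocyte and T cell markers lie below 0 in both sexes, and heat shock and proliferation genes lie on opposite sides in males and females.

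The medians of the heat shock, proliferation and stromal lists changed sign or came nearer to 0 without the B3gnt7-/- female, which stands apart. All 18 tested heat shock genes were positive, with a median of 0.45, but the median was -0.09 between males and 1.17 between females, and no list member had groups that did not overlap. Hspa1b was at 501 and 515 FPKM in the St6galnac6-/- male and female and at 502 and 106 FPKM in the B3gnt7-/- male and female (log2 1.13, and 0.02 without the latter in the fit of the other 3 libraries). Without the B3gnt7-/- female the median was -0.08 in the fit of 3 libraries and -0.13 in the fit of 7. Of 32 proliferation genes 30 were positive (median 0.21), with -0.49 between males and 0.93 between females, and the median without that library was -0.13 and -0.29. Without the St6galnac6-/- female it was -0.18 and -0.22. Among the compared libraries their summed level was highest in the St6galnac6-/- female (979 FPKM) and lowest in the B3gnt7-/- female (519 FPKM). The St6galnac6-/- and B3gnt7-/- males held 588 and 823 FPKM. Wild-type, at 514 and 531 FPKM, lay near the B3gnt7-/- female, and B3galt5D116A held 772 and 902 FPKM. Stromal markers, of which 7 of 24 were tested, had a median of -0.81 with that library and -0.16 and -0.27 without it. In alternatives that left out no library, the stromal median ran from -0.96 to -0.12, so processing moved it as well.

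MHC class II genes, which present antigen and which epithelium can express, were positive in all 6 tested, with a median of 0.51. The summed level of 11 measured members was 72.4 and 80.6 FPKM in the St6galnac6-/- male and female and 72.7 and 32.2 FPKM in the B3gnt7-/- male and female, so that the 2 males were level and the B3gnt7-/- female was lower. All 4 lay above the 21.6 and 16.7 FPKM of wild-type and the 15.6 and 14.4 FPKM of B3galt5D116A. Cd74, the invariant chain, was at 34.0 and 39.2 FPKM against 35.9 and 11.9 FPKM (log2 0.78, SE 0.36), and H2-DMb1, which loads peptides, at 5.26 and 5.12 FPKM against 4.62 and 1.38 FPKM (log2 0.76, SE 0.29, unadjusted p = 0.0364). Without the B3gnt7-/- female, in the fit of 3 libraries, these differences were 0.02 for Cd74 and 0.14 for H2-DMb1. The list's median was then 0.11, and 0.13 in the fit of 7.

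Among immediate early genes, which respond to stimuli within minutes to hours, 21 of 31 were lower (median -0.09), and none passed. Fosb was at 159 and 148 FPKM in the St6galnac6-/- male and female against 201 and 246 FPKM in the B3gnt7-/- male and female, all below the 401 and 352 FPKM of wild-type (log2 -0.53, SE 0.16). Egr2 was at 19.1 and 18.4 FPKM against 24.8 and 61.0 FPKM (log2 -1.02, SE 0.29), with the B3gnt7-/- female again the highest. Without that library the Egr2 difference was -0.39 in the fit of 3 libraries and -0.35 in the fit of 7. The lists of crypt stem cell genes, enteroendocrine genes, keratins, tight junction genes, unfolded protein response genes, hypoxia and glycolysis genes, MHC class I genes and genes of position along the gut had medians between -0.04 and 0.11. Some of these hide movement. With 1 library left out, the enteroendocrine median ran from -0.20 to 0.38 and the unfolded protein response median from -0.12 to 0.22. The crypt stem cell median was 0.24 between males and -0.01 between females. In these lists only Retnlb, a member of the position list too, passed. Smaller p-values outside the lists belonged to Casp14, a caspase of epithelial differentiation, at 13.0 and 15.1 FPKM in the St6galnac6-/- pair against 6.46 and 6.71 FPKM in the B3gnt7-/- pair (log2 0.99, SE 0.15, limma adjusted p = 0.244), and to Rmrp, a noncoding RNA subunit of RNase MRP, at 7.40 and 4.73 FPKM against 1.83 and 0 FPKM (log2 2.04, SE 0.27, limma adjusted p = 0.135).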

How the data were processed

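Colon epithelial RNA of 4 libraries, 2 St6galnac6-/- and 2 B3gnt7-/-, was compared, and the other 4 libraries of the series are shown as levels. Per the labels' protocols, total RNA went into stranded mRNA libraries. The genome build was mm10, and the tools were Cuffdiff 2.2.1, SAMtools 0.1.18, Bowtie2 2.2.8 and TopHat2 2.1.1, per the submitters' processing notes. Parameters, annotation, read length and the scaling between libraries are not given in the sources used here. The authors deposited FPKM values for 24346 gene symbols per library, per the file headers. With no counts in these tables the depth is unknown beyond the relative values given, and no counting interval can be had.

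From these, log2(FPKM + 1) was fitted with limma 3.58.1 in R 4.3.3 (lmFit and a trended eBayes), the terms being genotype and sex, for the 11564 genes whose mean over the 4 libraries reached 1 FPKM. This left 1 residual and 5.79 prior degrees of freedom. Tests were two-sided, with Benjamini-Hochberg adjustment across all tested genes and a threshold of 0.05. The fit was run on simulated data with normal errors, no sex effect and no outlying library, as a check of the estimated differences only. That run cannot show how many calls in these libraries are false. The replicate numbers stand for sex only (1 male, 2 female), and same-numbered libraries share nothing else in the labels. With 1 library per combination, no interaction of sex with genotype was fitted.

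The members and the gene lists were chosen with earlier results of these data known, so lists are described by counts and medians without a test. Genes named are the targeted genes, those past the threshold with 1 sign in both sexes (filled with the smallest p to 10 per direction), up to 3 or 4 per list by smallest p, and the enzymes of the sialic acid and chain extension lists. Others are said to be named after their values were seen. Positions come from GENCODE M21 (mm10), matched by symbol for 11149 genes tested (96.4%), and promoter and miRNA sequences from RefSeq GRCm38.p6. Alternatives were pseudocounts of 0.1 and 5, no filter and a filter of 5 FPKM, quantile normalization, median centring, no sex term, a fit of all 8 libraries, other prior variances, each library left out, and no small RNA genes.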

Additional observations from a re-analysis of the deposited data

Results flagged for a closer look

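For some gene lists and genes the difference between St6galnac6-/- and B3gnt7-/- had opposite signs in the male and female libraries, by at least 0.2 (log2) in each. With 1 library per genotype and sex, the difference between the sexes was not tested. The B3gnt7-/- female library, which stands apart from the others, is part of every female value, and its part was not tested.

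The median of proliferation genes was -0.49 between males and 0.93 between females, which differ by 1.42. Of its members, the kinesin Kif20a was at -0.21 and 1.23 (difference 1.45), the survivin gene Birc5 at -0.33 and 1.46 (difference 1.79) and the spindle protein Nusap1 at -0.32 and 1.04 (difference 1.36). The median of circadian clock genes was 0.33 between males and -0.61 between females, a difference of -0.94, and Nr1d2, a repressor of the clock, was at 0.38 and -0.999 (difference -1.38). The median of tuft cell genes was 0.42 between males and -0.31 between females (difference -0.74), over 7 genes. The median of carbohydrate sulfotransferases was 0.26 and -0.28 (difference -0.54), over 9 genes. The keratin Krt36 was at -0.26 and 0.86 (difference 1.12), and B4galnt3, which makes a terminal glycan motif, at 0.69 and -0.25 (difference -0.94). Groups of 2 libraries allow no test for a library far from the others.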

How the results depend on the processing

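The count of 10 genes past the threshold was 7 and 8 with pseudocounts of 0.1 and 5, 7 with a filter of 5 FPKM, 10 with median centring and with a constant prior variance, and 11 with a robust one. It fell to 4 with no filter on low values, 2 with quantile normalization and 5 in the fit of all 8 libraries. Without the replicate block, that is without the sex term that pairs libraries of 1 sex, it was 5. Left-out libraries gave 5 to 59 calls. In fits of the other 3 libraries there were 16 without the St6galnac6-/- male, 16 without the St6galnac6-/- female and 42 without the B3gnt7-/- male, and in fits of the other 7 there were 5 without the St6galnac6-/- female and 59 without the B3gnt7-/- male. A lone library of a genotype is there assumed to vary like the others. Leaving out small RNA genes, chosen after seeing the data, gave 8. The cause of these shifts was not tested. No paired analysis beyond sex was possible because the labels give no other pairing.

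St6galnac6 and B3gnt7 kept their direction and did not pass in any of 17 alternatives each. No called gene changed sign. The medians of the absorptive, interferon, MHC class II, Naip, tight junction, core enzyme, T cell, myeloid and stromal lists kept their sign in all alternatives. Those of the other lists changed sign in at least 1. Leaving out the B3gnt7-/- female did so, in at least 1 fit, for the heat shock, proliferation, mucin, sialic acid, fucosyltransferase and sulfotransferase lists. The aldosterone-type transport, enteroendocrine, tuft cell, MHC class I, antimicrobial, Ly6, clock, hypoxia and unfolded protein response lists also changed sign without it. The alternative with no filter was run for counts and lists, not for single genes. Levels near 1 FPKM and genes listed at 0 are the least certain, and with 1 residual degree of freedom the spread comes mainly from the other genes.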
